A study of Mus musculus with 19 samples.

Results

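The solute carrier genes are described here through the extrachromosomal circular DNA (eccDNA) that arose from them in mouse cervical spinal cord. They were taken as every gene of the deposited table whose symbol begins with *Slc* and a digit, or with *Slco*, which gave 140 of the 8336 genes. Of the 138 that could be placed on mm10, 136 are protein-coding genes, and the rule also takes in an antisense transcript (*Slc6a19os*) and a pseudogene (*Slc2a4rg-ps*). The table holds 9 ALS libraries from symptomatic *hSOD1G93A* males of B6.Cg-Tg(SOD1\*G93A)1Gur/J, which constitutively overexpress a mutant human superoxide dismutase, and 10 control libraries from C57BL/6J males of the same age. The mutants showed motor symptoms at 18 to 21 weeks with a severity score of 1 or 2, animals without symptoms in that window were not used, and each library came from 1 animal. No group overexpressing wild-type human SOD1 was analysed here, so that the mutation and the presence of a transgene cannot be told apart. The study asked which genes shed more eccDNA in the diseased cord than in the healthy cord.

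Solute carriers are membrane proteins that move ions, amino acids, sugars, nucleotides, vitamins and drugs across cellular membranes, either down a gradient or coupled to the movement of another ion. In the spinal cord they clear glutamate and glycine from the synapse, load transmitters into vesicles, set the chloride and calcium levels of neurons, and bring cystine into astrocytes for glutathione synthesis. An eccDNA is a circle cut from chromosomal DNA, and an eccDNA from a carrier gene usually holds a fragment of it, so that its presence says nothing of the amount of the transporter.

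The unit throughout is log2(PpGC + 1), where PpGC stands for the per gene eccDNA production, that is, the split reads summed over all circles that touch a gene, divided by its length and scaled up to that of the longest gene. Levels are therefore given per length, but the lowest level above 0 depends on gene length. With 2 split reads it was 4.10 in *Slc7a11* (551 kb, ALS library 3) and 9.97 in *Slc25a41* (8.88 kb, ALS library 1). Levels and sizes of a difference are thus not directly comparable between genes of unlike length. A value of 0 means that no circle with at least 2 split reads overlapped the gene. Of the member values 91% were 0, and 92 of the 140 members (65.7%) had an eccDNA in 1 library only, beside 66.2% of all genes. Across libraries, the genes of any kind that held an eccDNA ranged in number from 694 to 2204 in ALS and from 57 to 723 in controls, and 71.9% of the variance of this number lay between the groups. The table gives no read depth per library, and copies made by rolling circle amplification are not independent molecules, so that no counting interval is given. Whole cord was used, so that more circles per cell and a changed number or mix of cells cannot be told apart.

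More solute carrier genes carried an eccDNA in the ALS cords than in the control cords, by a ratio close to that over all genes. In ALS libraries 1 to 9 the number of members with an eccDNA was 27, 30, 44, 7, 19, 10, 14, 21 and 26. In control libraries 1 to 10 it was 13, 7, 1, 6, 0, 0, 3, 7, 3 and 2. The mean was 22.0 ± 11.4 (SD, n = 9) in ALS and 4.2 ± 4.08 (SD, n = 10) in controls, a ratio of 5.24, and 7 of the 9 ALS libraries lay above every control library. ALS library 4, with 7 members, and ALS library 6, with 10, lay within the control range. The ratio over all genes of the table was 5.35.

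As a share of the genes with an eccDNA in the same library, the solute carrier genes did not separate the groups. The members made up 1.64% ± 0.497 (SD, n = 9) of these genes in ALS and 1.50% ± 1.11 (SD, n = 10) in controls. The share ranged from 0.758% to 2.34% in ALS and from 0% to 3.87% in controls, so that the ALS range lay inside that of the controls. Of the 140 members, 105 (75%) had an eccDNA in ALS libraries alone, 20 (14.3%) in both groups and 15 (10.7%) in control libraries alone. The same shares over all 8336 genes were 75%, 14% and 10.9%. The median difference of means between ALS and controls was 1.09 over the members and 1.19 over all genes.

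**Figure D1:**
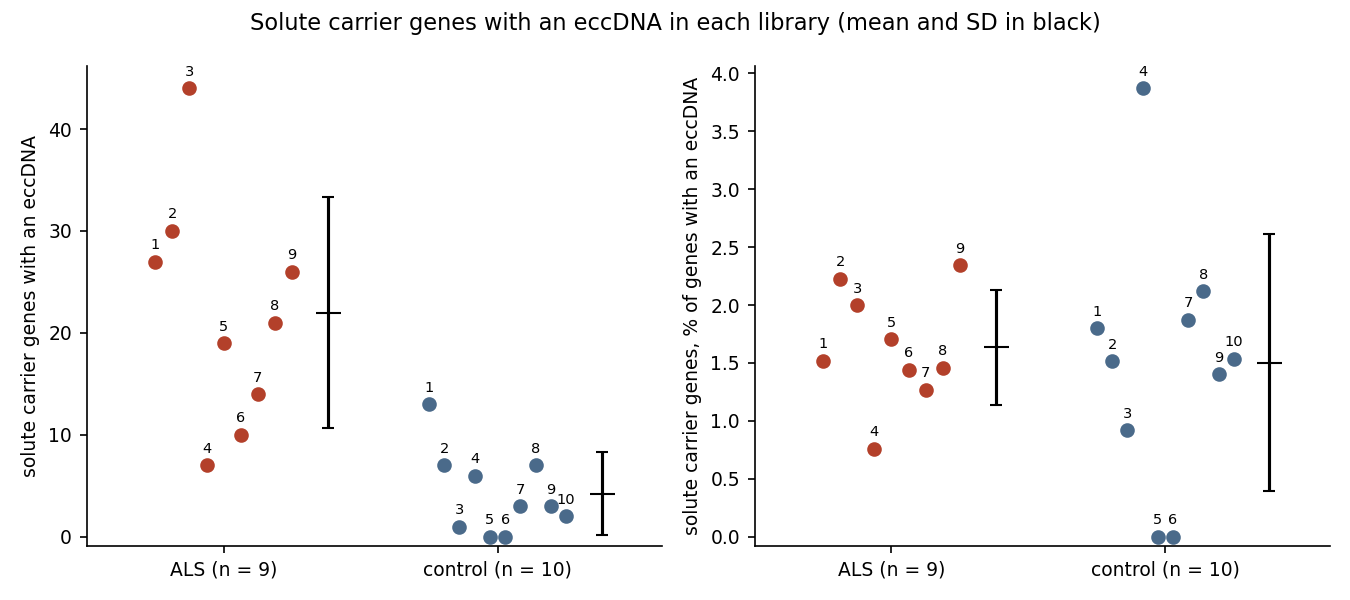
Left, number of solute carrier genes with an eccDNA in each library; right, the same as a percent of all genes with an eccDNA in that library. Points are libraries with their replicate number, black marks the mean and SD (n = 9 ALS, n = 10 control). The counts reach 44 in ALS library 3 and 13 in control library 1, whereas the percentages overlap.

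Few values, each of 1 gene in 1 library, held most of the split reads on members. A value of 100 or more split reads occurred 30 times, in 24 members, and made up 12.2% of the member values above 0 in ALS and 14.6% in controls, beside 12.2% and 13.5% over all genes. The highest was that of *Slc24a2* in ALS library 6 with 13297 split reads, which was 97.7% of all split reads on members there. *Slc2a13* in control library 8 followed with 9304 split reads, 99.6% of the reads on members of that library. *Slc35f4* in ALS library 7 had 1425 (51.7%), *Slc9a2* in control library 1 had 1037 (48.1%) and *Slco5a1* in control library 4 had 996 (96.5%). The median value above 0 was 7 split reads in ALS as well as in controls, the same as over all genes. Of the member values above 0, 19.3% in ALS and 24.4% in controls rested on 2 split reads, the lowest that is kept.

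For the single gene, a member was called up in ALS when its mean exceeded that of the controls by more than 1 with a two-sided p under 0.01 by the methods' t-test, which was computed for every gene of the table. By this rule 4 of the 140 members (2.86%) were up, namely *Slc7a11*, *Slc35f4*, *Slc35f1* and *Slc4a4*, beside a background of 1.33% (111 of 8336 genes). No member was down, and the background was 0% with 0 genes, and at an unadjusted p under 0.05 by the same test there were also 0 lower genes. At that unadjusted threshold 8 members (5.71%) were higher in ALS, beside 4.2% of all genes. With p-values adjusted by Benjamini-Hochberg across the table, 0 members and 6 genes (0.072%) passed 0.05. With limma's moderated test, adjusted in the same way, 1 member passed, *Slc35f4*, with an adjusted p of 0.0411, among 11 genes.

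*Slc7a11* encodes xCT, the light chain of the cystine/glutamate exchanger, which imports cystine and exports glutamate from astrocytes and microglia. Its log2 level was 5.37, 0, 4.10, 4.10, 6.72, 9.26, 5.05, 0 and 5.05 in ALS libraries 1 to 9 and 0 in each of the 10 control libraries. Thus 7 of the 9 ALS libraries had an eccDNA from this gene and the controls had none, with ALS library 6 the highest at 76 split reads and ALS libraries 3 and 4 at the minimum of 2. In ALS library 4 the overlapping gene *Gm37854* had the same number of split reads, and whether these are the same reads was not tested. The mean was 4.40 ± 2.95 (SD, n = 9) in ALS, and the difference to the controls of 4.40 had a p of 0.000192 by the methods' t-test and a two-sided exact permutation p of 0.000714. By this p it ranked 10 of all 8336 genes and by size of the difference 89. The gene lies on chromosome 3 from 49892526 to 50443614 on the minus strand of mm10, and its 551 kb make it the longest member but 1. The call did not depend on any of the 19 libraries when each was left out in turn, but was lost with a pseudocount of 100 in place of 1, where the difference was 0.62 with a p of 0.0399 by the methods' t-test.

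*Slc35f4*, an orphan member of the family of nucleoside-sugar transporters, had the largest difference between the groups among all 8336 genes. Its log2 level was 10.94, 12.50, 11.70, 0, 10.17, 0, 14.76, 7.29 and 6.30 in ALS libraries 1 to 9, and 5.32 in control library 2 with 0 in the other 9 controls. The 7 positive ALS libraries all exceeded the positive control, which rested on 2 split reads, and ALS library 7 alone held 1425 split reads. The mean was 8.19 ± 5.29 (SD, n = 9) in ALS and 0.53 ± 1.68 (SD, n = 10) in controls, a difference of 7.65 with a p of 0.000438 by the methods' t-test and an exact permutation p of 0.00131. The gene spans 228 kb on chromosome 14, from 49298519 to 49526046 on the minus strand. The share of genes with an eccDNA that lay on chromosome 14 varied between the ALS libraries 12.1 times as much as counting noise (chi-square per degree of freedom), against 0.369 times for chromosome 3. The part of this in the value of *Slc35f4* was not tested. The call held with each of the 19 libraries left out in turn. In ALS library 3 a small RNA gene inside *Slc35f4* also had 171 split reads. Whether these are the same reads was not tested.

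*Slc35f1*, a related orphan carrier expressed in the brain, reached 8.31, 5.03, 8.40, 0, 0, 6.22, 0, 4.46 and 0 in ALS libraries 1 to 9 and 0 in all controls. Hence 5 of 9 ALS libraries were positive, with 30 and 32 split reads in ALS libraries 1 and 3 and 7 or fewer in the rest. The difference of 3.60 had a p of 0.00611 by the methods' t-test and an exact permutation p of 0.0108. It lies on chromosome 10 from 52690533 to 53111622, plus strand, 421 kb, and chromosome 10 also varied between ALS libraries, by 13.2 times counting noise. The call was lost when any of 5 ALS libraries was left out.

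*Slc4a4* encodes NBCe1, the electrogenic sodium bicarbonate cotransporter of astrocytes. Its log2 level was 12.52, 0, 5.27, 0, 6.25, 0, 6.98, 6.00 and 0 in ALS libraries 1 to 9 and 0 in all controls. ALS library 1 stood far above the other 4 positive libraries, with 468 split reads against 10 or fewer. The difference of 4.11 had a p of 0.00886 by the methods' t-test, close to the threshold, and an exact permutation p of 0.0108. The gene covers 353 kb on chromosome 5, from 88886818 to 89239653 on the plus strand, a chromosome that varied 0.412 times as much as counting noise. When 1 library was left out, the call was lost in 14 of 19 cases, among them each of the 10 controls.

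The 4 called genes were not found in the same set of ALS libraries. ALS libraries 1 and 3 had an eccDNA from all 4 and ALS library 4 from *Slc7a11* alone. *Slc35f4* and *Slc4a4* shared 5 libraries, whereas *Slc7a11* and *Slc35f1* shared 3. By the pattern of presence over the 19 libraries, the members most like *Slc35f4* were *Slc4a4* (equal in 16 libraries), *Slc4a10* (15) and *Slc24a4* (14). Other members were tied at 14, among them the called *Slc7a11* and *Slc35f1*. These 2 shared 5 and 4 positive ALS libraries with *Slc35f4*, against 3 for *Slc24a4*. For *Slc7a11* they were *Slc22a23*, *Slc24a2* and *Slc25a21*, equal in 15 libraries, a number that 6 members reached. For *Slc4a4* they were *Slc10a7*, *Slc16a10* and *Slc23a2*, equal in 16, a number that 8 members reached, with ties ordered by symbol. *Slc35f4* was among the 8 and shared 5 positive ALS libraries with *Slc4a4*, against 2 for each of the 3 named. Libraries that lack both genes count as equal here, and most of these are controls.

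This load of a library, counted as genes holding any eccDNA, moved with the group, and with it as a covariate in limma the 4 genes parted. The difference was then 6.52 for *Slc7a11* (p = 0.0017), 1.28 for *Slc35f4* (p = 0.628), -0.78 for *Slc35f1* (p = 0.69) and -0.47 for *Slc4a4* (p = 0.836), all from limma. With this covariate *Slc7a11* was thus the member called, beside 34 of all genes (0.408%), and *Slc35f1* and *Slc4a4* turned in direction. With totals made equal between libraries, *Slc7a11* (3.43) and *Slc35f4* (6.09) were called, beside 60 of all genes (0.72%). *Slc35f1* and *Slc4a4* then had differences of 3.20 (p = 0.0108) and 3.01 (p = 0.0337) by the methods' t-test, with a p above the threshold of 0.01.

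**Figure D2:**
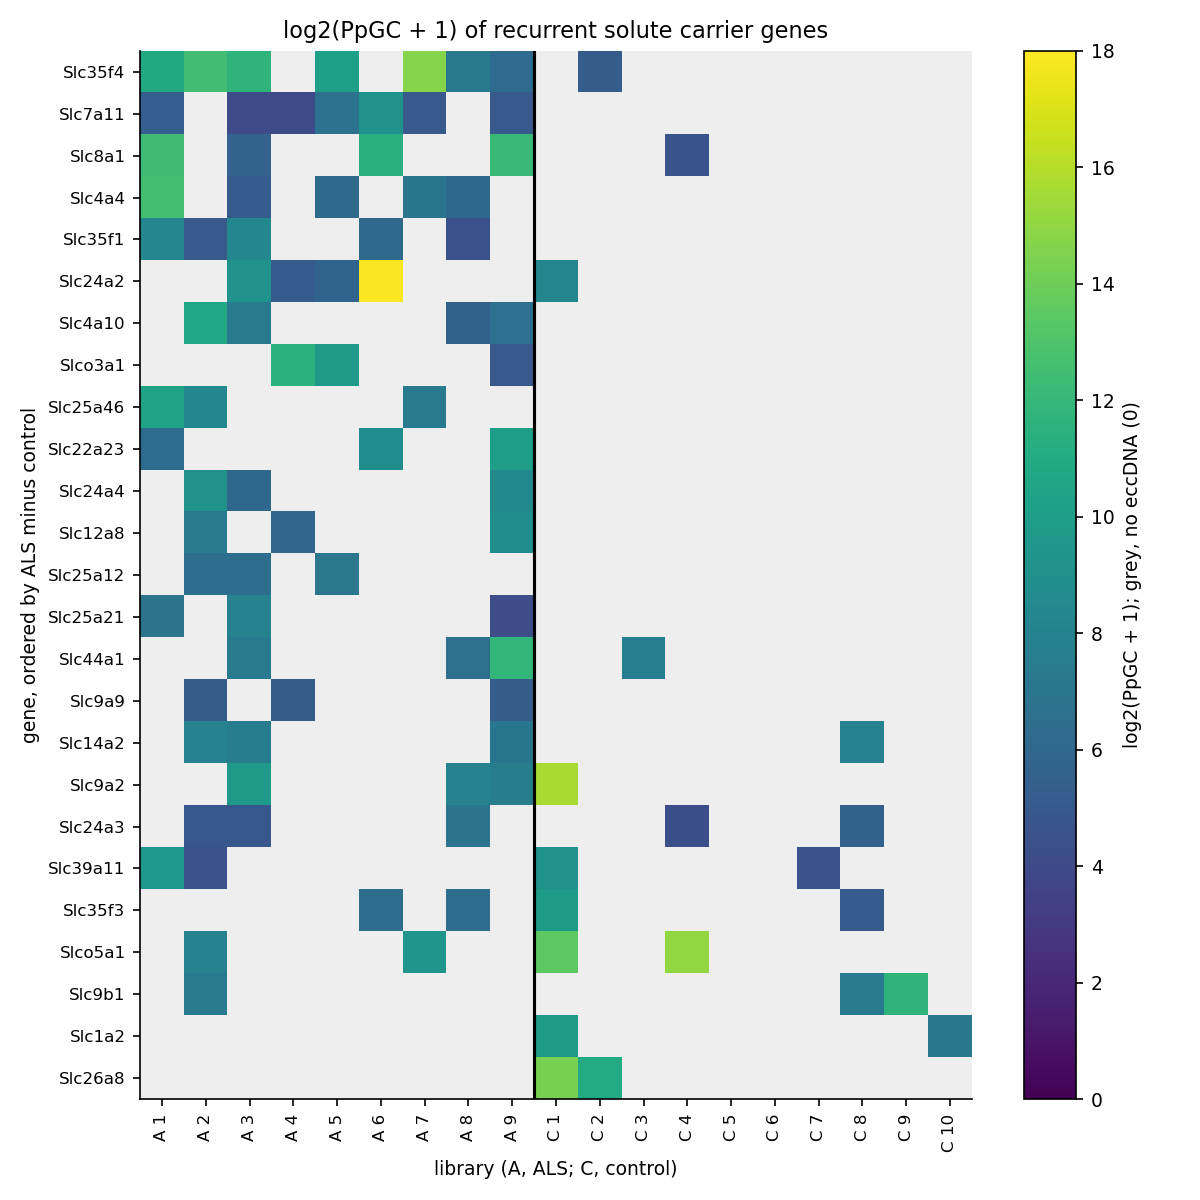
Heat map of log2(PpGC + 1) for the 25 solute carrier genes with an eccDNA in at least 3 ALS or at least 2 control libraries, in rows by decreasing difference, over the 9 ALS (A) and 10 control (C) libraries. Grey marks 0. The upper rows are filled on the ALS side, with *Slc35f4* and *Slc7a11* in 7 ALS libraries each, and control libraries 5 and 6 hold none of these genes.

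Among the remaining members, 19 of the 140 (13.6%) had an eccDNA in at least 3 ALS libraries when the called genes are counted in, beside 11.8% of all genes, and 12 of the 19 (63.2%) had none in the controls, beside 546 of the 984 such genes of the table (55.5%). Next by p after the called genes came *Slc4a10* and *Slc8a1*. *Slc4a10*, a neuronal sodium-driven bicarbonate transporter, had 10.70, 7.45, 5.60 and 6.58 in ALS libraries 2, 3, 8 and 9 and 0 in the other 15 libraries, a difference of 3.37 with a p of 0.0214 by the methods' t-test and an exact permutation p of 0.0325. With the load as covariate in limma its difference was -0.062 (p = 0.978). *Slc8a1*, the sodium/calcium exchanger NCX1, had 12.33, 5.63, 11.29 and 12.20 in ALS libraries 1, 3, 6 and 9 and 4.66 in control library 4, a difference of 4.14 with a p of 0.0431 by the methods' t-test and an exact permutation p of 0.0542. Its difference exceeded those of *Slc4a4* and *Slc35f1*, but the spread between ALS libraries was wider (SD 5.80, n = 9).

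*Slc24a2*, a potassium-dependent sodium/calcium exchanger of neurons, was also in 4 ALS libraries, with 9.17, 5.20, 5.78 and 17.86 in ALS libraries 3 to 6, and in control library 1 with 8.17. Its difference of 3.41 fell to 1.70 without ALS library 6. *Slc9a9*, the endosomal sodium/proton exchanger NHE9 and at 561 kb the longest member, had 5 split reads in each of ALS libraries 2, 4 and 9, a log2 level of 5.34 in all 3, and 0 elsewhere. *Slc25a12*, the mitochondrial aspartate/glutamate carrier, had 6.54, 6.54 and 7.11 in ALS libraries 2, 3 and 5 and 0 elsewhere, and its difference turned to -0.24 with the load as covariate in limma. The last 2 had a p of 0.0495 and 0.0497 by the methods' t-test, and for either the exact permutation p was 0.0867.

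No carrier was lower in ALS by the test, and those with the most negative differences rested on 1 or 2 control libraries. *Slc26a8*, an anion exchanger of male germ cells, had 14.34 in control library 1 and 10.99 in control library 2 and 0 in every ALS library, a difference of -2.53 with an exact permutation p of 0.474. With the load as covariate in limma its difference was -7.27 (unadjusted p = 0.0176). *Slc1a2*, which encodes GLT-1, the main glutamate transporter of astrocytes, had 9.83 in control library 1 and 7.08 in control library 10 and 0 in every ALS library, a difference of -1.69 with the same exact permutation p of 0.474, and of -3.69 with that covariate (p = 0.109, limma). *Slc10a2*, the bile acid transporter of the ileum, was seen in control library 9 only, with 13.45. In at least 2 control libraries there were 7 members (5%), beside 251 of all genes (3.01%), and 2 was the highest number of control libraries for any member, against 7 ALS libraries.

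Besides *Slc26a8* and *Slc1a2*, these were *Slco5a1*, *Slc9b1*, *Slc24a3*, *Slc39a11* and *Slc35f3*, each of which also had an eccDNA in ALS. *Slco5a1*, an orphan organic anion transporter, had 13.44 and 15.10 in control libraries 1 and 4 but 7.95 and 9.39 in ALS libraries 2 and 7. *Slc39a11*, a zinc transporter, had 9.58 and 4.52 in ALS libraries 1 and 2 and 9.26 and 4.52 in control libraries 1 and 7, a difference of 0.19 that was -4.31 with the load as covariate (p = 0.0853, limma). *Slc9b1*, a sodium/proton exchanger of sperm, had 7.48 in ALS library 2 and 7.48 and 11.72 in control libraries 8 and 9. *Slc24a3*, a sodium/calcium exchanger, had 4.86, 4.86 and 6.94 in ALS libraries 2, 3 and 8 and 4.30 and 5.58 in control libraries 4 and 8. *Slc35f3*, a relative of *Slc35f1* and *Slc35f4*, had 6.45 in each of ALS libraries 6 and 8 and 9.81 and 5.15 in control libraries 1 and 8.

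The carriers of transmitters and ions in motor circuits had an eccDNA 10 times in ALS libraries and 5 times in control libraries, a ratio per library of 2.22 beside 5.35 over all genes. Of a list of 19 such genes, 7 had a row and the other 12 were not analysed here. Each of the 8336 rows held an eccDNA in at least 1 library, so that the counts are over genes found at least once. By the methods' t-test 0 of the 7 were up in ALS, beside 1.33% of all genes, and 1 (14.3%), *Slc8a1*, reached an unadjusted p under 0.05, beside 4.2%. *Slc3a2*, the heavy chain that pairs with the *Slc7a11* product, had 14.84 and 11.07 in ALS libraries 5 and 9 and 0 elsewhere (difference 2.88, exact permutation p = 0.211). *Slc7a11* was also present in both, but it was present in 7 of the 9 ALS libraries. *Slc6a5*, the glycine transporter GlyT2 of inhibitory neurons, had 7.96 in ALS library 3 only. *Slc12a2*, the chloride importer NKCC1, had 7.04 in ALS library 8 only. *Slc17a6*, the vesicular glutamate transporter VGLUT2, had 9.67 in ALS library 3 and 7.50 in control library 7, and *Slc8a3*, the exchanger NCX3, had 8.21 in ALS library 1 and 10.84 in control library 1. For these 4 genes the groups overlapped and the difference lay between -0.17 and 0.88. With the load as covariate in limma it was -2.79 for *Slc6a5* (p = 0.0935), -3.81 for *Slc17a6* (p = 0.0894), -4.81 for *Slc8a3* (unadjusted p = 0.0481) and 0.29 for *Slc12a2* (p = 0.868), so that *Slc6a5* and *Slc17a6* turned in direction.

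Of 14 carriers that the study lists as ALS risk genes, 9 were analysed, and 0 of the 9 were up in ALS by the methods' t-test. At an unadjusted p under 0.05 there were 2 (22.2%), *Slc9a9* and *Slc25a12*, whose values are given above, beside 4.2% of all genes. *Slco4a1*, an organic anion transporter, had 10.22 in ALS library 3 only, and *Slc38a1*, a glutamine transporter of neurons, had 6.97 in ALS library 8 only. *Slc2a13*, the proton myo-inositol cotransporter, went the other way through control library 8 at 17.04, against 6.87 in ALS library 1. Together these 9 genes were found 18 times in ALS libraries and 6 times in control libraries, a ratio per library of 3.33, beside 5.35 over all genes.

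Grouped by gene family under the substrate the family is named for, every class of carriers had more genes with an eccDNA per ALS library than per control library. The 27 inorganic ion carriers were the most frequent, with 5.22 ± 3.63 genes (SD, n = 9) per ALS library and 1.5 ± 1.78 (SD, n = 10) per control library, and they had the highest share of members found in both groups (29.6%). The 27 neurotransmitter and amino acid carriers had 3.89 ± 2.15 (SD, n = 9) and 0.6 ± 0.699 (SD, n = 10), and 6 of 9 ALS libraries lay above all controls. The 23 organic ion and bile acid carriers had 3.11 and 0.5. For the 16 sugar and monocarboxylate carriers the mean was 2.22 and 0.2, the widest ratio of the classes at 11.1, with 7 of 9 ALS libraries above all controls.

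The 9 genes of the *Slc35* family of nucleotide sugar carriers had 2.22 genes per ALS library and 0.3 per control library, and 2 of the 9 (22.2%) were up in ALS, beside 1.33% of all genes. These were the orphans *Slc35f4* and *Slc35f1*, so that the count is one of a family and not of a substrate. Of the 13 mitochondrial carriers, 2.11 and 0.3 were found per library, and *Slc25a46*, which acts in mitochondrial dynamics, was in ALS libraries 1, 2 and 7 with 10.37, 8.37 and 7.37. The 9 metal carriers were the least frequent in ALS, with 1.0 and 0.3, and none was up by the methods' t-test, also at an unadjusted p under 0.05. Ratios of the classes ran from 3.33 to 11.1, on counts of 2 to 15 findings in all controls, and the difference between classes was not tested. Within the neurotransmitter class, all 8 *Slc6* genes were found in exactly 1 ALS library each and in no control, where 66.2% of all genes were found in 1 library only and 75% in ALS libraries alone. Among them *Slc6a19* and its antisense transcript *Slc6a19os* overlap and hold an equal number of split reads, 503, in ALS library 7. Whether these are the same reads was not tested.

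**Figure D3:**
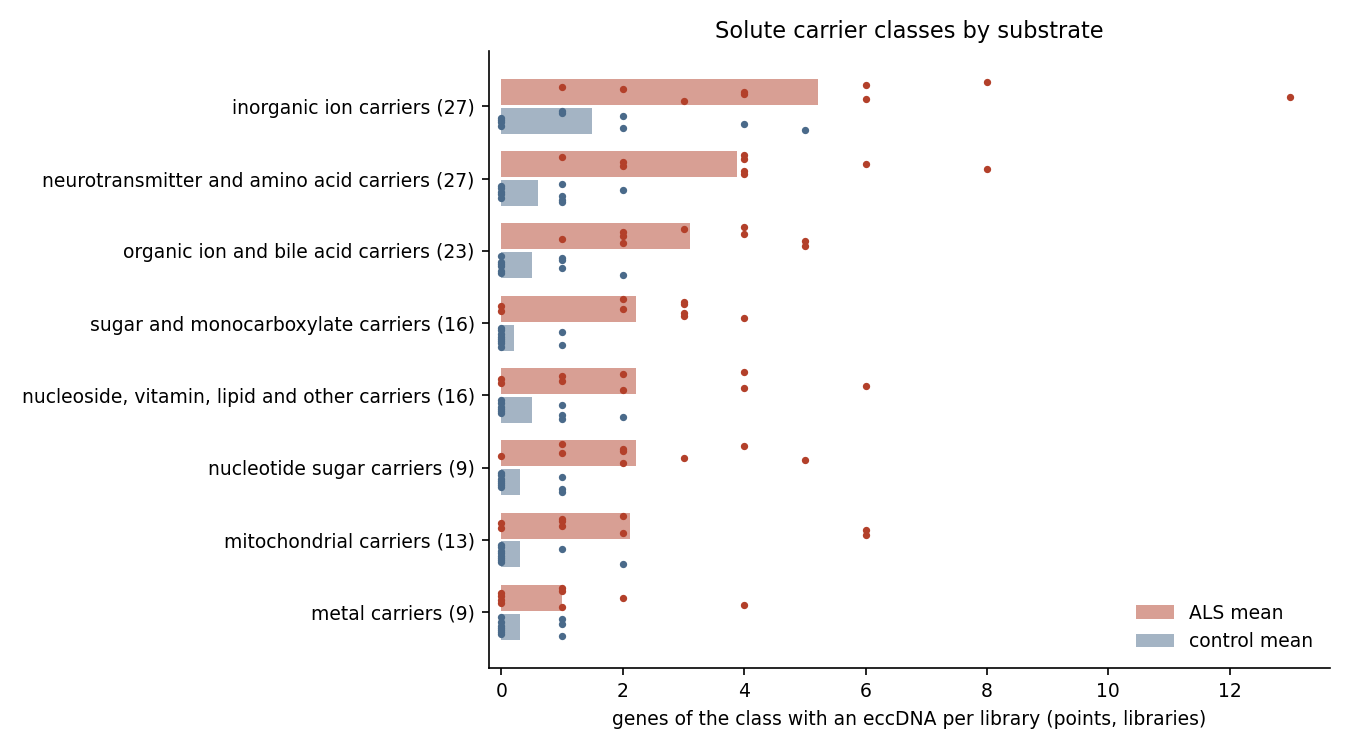
Genes of each substrate class with an eccDNA per library, with the number of members of the class in brackets. Bars are means over 9 ALS and 10 control libraries and points are libraries. The ALS mean is above the control mean in every class, and single libraries overlap in all of them, as in the inorganic ion carriers, where ALS values run from 1 to 13 and control values from 0 to 5.

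Carriers with long genes were found more often than those with short genes. Of 394 annotated carrier symbols in GENCODE release M21, 16 of 136 genes up to 20 kb (11.8%) had a row in the table, 39 of 146 from 20 to 50 kb (26.7%), 46 of 72 from 50 to 100 kb (63.9%), 20 of 23 from 100 to 200 kb (87%) and all 17 over 200 kb. The 4 genes that were up in ALS were all among these 17, at ranks 2, 6, 9 and 16 of the members by length. They were 23.5% of the 17, and among other genes over 200 kb the share was 9.36% (95 of 1015), a difference that was not tested. Members over 200 kb were found in 3.53 ALS and 0.588 control libraries on average, other genes of that size in 3.26 and 0.761.

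The other 13 of the 17 long carriers were not called, and in each shorter class 0 members were up by the methods' t-test. Among other genes of these shorter classes, from short to long, 0%, 0%, 0.186% and 0.609% were up. *Slc39a11* (405 kb) was in 2 libraries of each group, *Slc24a3* (474 kb) in 3 ALS and 2 control libraries, and *Slc2a13* (306 kb) in 1 of each, whereas *Slc35f4*, the shortest of the called genes at 228 kb, was in 7 ALS libraries. Across 138 members with a known length, the number of ALS libraries followed length with a Spearman rho of 0.535, and across 8106 genes of the table with 0.519. These are descriptions across genes that share libraries and the length scaling.

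**Figure D4:**
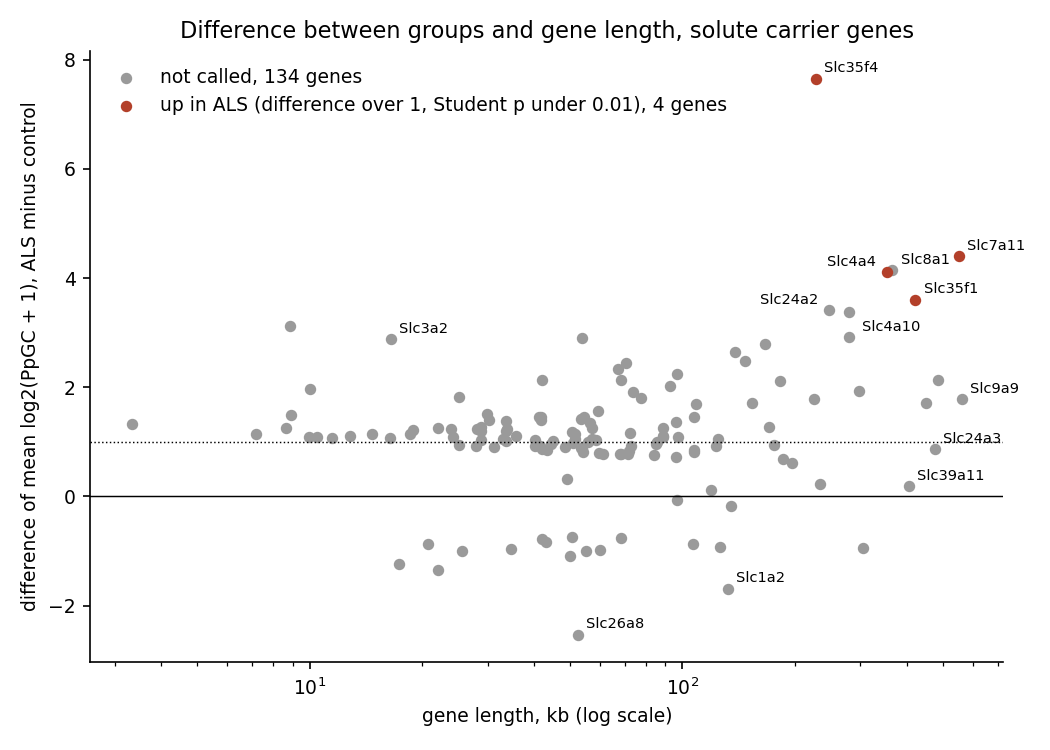
Difference of mean log2(PpGC + 1) between ALS and control against gene length (log scale) for 138 solute carrier genes. Red marks the 4 genes up in ALS, grey the others, and the dotted line a difference of 1. The called genes lie at 228 kb and above, and *Slc26a8* and *Slc1a2* are the lowest points at -2.53 and -1.69.

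**Figure D5:**
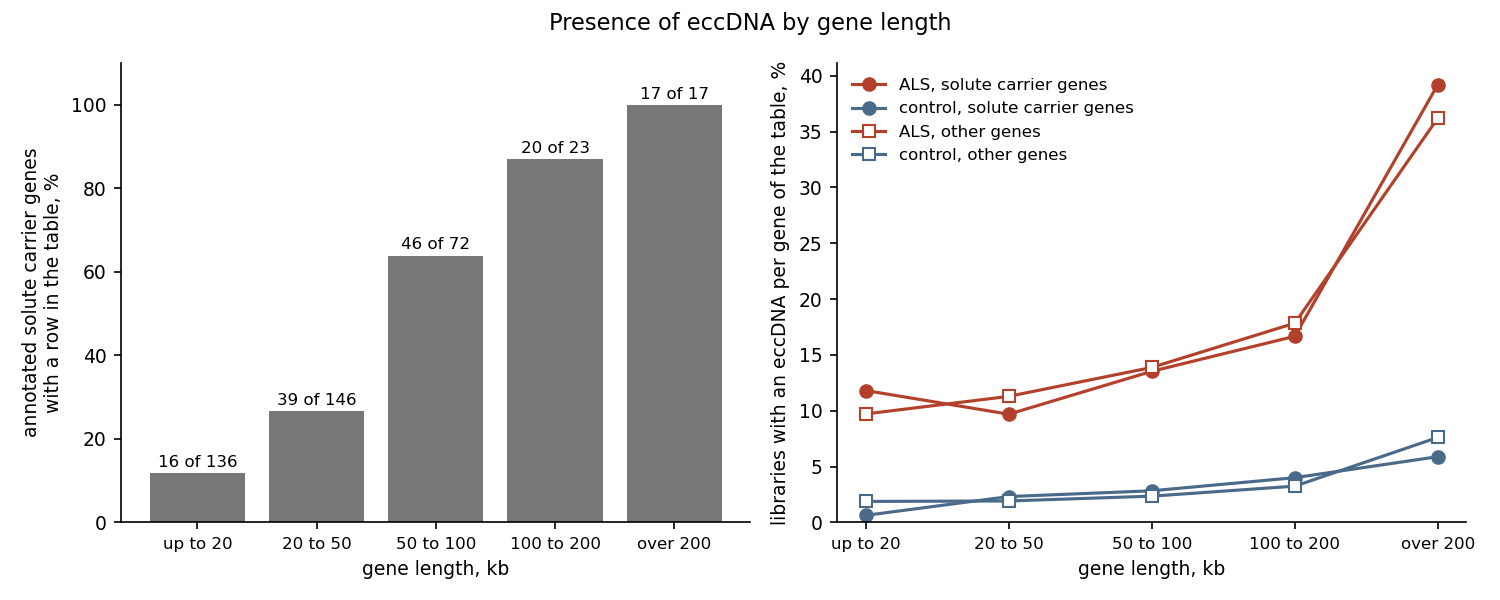
Left, percent of annotated solute carrier genes with a row in the table by gene length. Right, percent of the 9 ALS or 10 control libraries with an eccDNA per gene of the table, for solute carrier genes (filled circles) and other genes (open squares). The left bars rise from 11.8% to 100%, and on the right both carriers and other genes are highest over 200 kb, in either group.

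The called genes were long, with a low exonic share and a lower GC content than the median member, and uncalled long carriers overlapped them in these traits. The gene bodies of the 4 had a median GC content of 40.1% (38.8% to 41.6%), beside 40.3% for the 110 up genes that could be placed and 44.2% for the solute carrier genes in general. Exons covered 2.70% of the 4 gene bodies in the median, with 8.39% in all members, and repeats masked in the reference covered 27.9% and 25.1%. In the 13 carriers over 200 kb that were not called, the median GC content was 42.4% (36.6% to 48.8%), the exonic share 2.29% and the masked share 22.7%, and the difference to the 4 was not tested. No position of an eccDNA inside a gene is given by the table, so that these values describe whole genes.

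Genes of other transport families were counted by the same rule, by which 1.33% of all genes were up. Of 28 ABC transporters, pumps for drugs and lipids, 1 (*Abcg2*) was up (3.57%). Of 21 P-type ion pumps and 5 aquaporins and connexins none was up, also at an unadjusted p under 0.05 by the methods' t-test. Of 71 ion channel genes 5 were up (7.04%), namely *Cacna1d*, *Cacnb2*, *Kcnh7*, *Kcnma1* and *Kcnq5*. The median length was 122 kb in that list and 56.2 kb among the solute carriers. At the unadjusted threshold 13 channels (18.3%) and 1 ABC transporter (3.57%) were higher in ALS, beside 4.2% of all genes. From a list of cystine, glutathione and glutamate enzymes only *Cbs*, an enzyme of cysteine synthesis, had a row. It was found in 1 ALS library, and the other enzymes of the list were not analysed here.

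On chromosomes 2 to 9, whose share of genes varied between ALS libraries by 0.369 to 1.93 times counting noise, 2 of 72 carriers were up (2.78%), *Slc7a11* and *Slc4a4*, beside 64 of 4165 genes (1.54%). On the other chromosomes 2 of 66 carriers were up (3.03%), beside 46 of 3941 genes (1.17%). The number of members with an eccDNA was 10.9 and 2 per library on the former, so that the ratio of 5.44 there was close to that of 5.24 over all members.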

How the data were processed

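EccDNA of 19 mouse cervical spinal cords was enriched by the authors from 400 ng of DNA per animal with exonuclease V for 7 days, amplified by rolling circle amplification for 48 h, sequenced, and mapped to mm10, and circles were intersected with genes using bedtools. The authors deposited log2(PpGC + 1) per gene and sample, which is scaled by gene length but not across libraries. Their GENCODE release is not given in the sources used here.

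The deposited log2 values were not altered. GENCODE M21, joined on gene symbols, placed 138 of 140 members. Undoing the length scaling with its gene lengths gave whole split reads for 97.9% of the member values (tolerance 0.02), with *Slc4a4* nearly and *Slc35f3* not whole. The table had 0 columns of other samples. Every gene was tested by Student's test, limma and exact permutation over 92378 assignments of the samples. P-values measure the spread between these animals.

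Members and lists were chosen with earlier results of these data known. The genes named are members up or down, *Slc7a11*, *Slc4a4* and *Slc35f4* with the 3 most like each, members in at least 4 ALS or 2 control libraries, the 3 lowest differences, and the lists of motor circuit and ALS risk carriers. *Slc25a46*, *Slc6a19*, *Slc6a19os*, and the channel and pump genes were named after their values were seen. Alternatives were limma, exact p-values, Benjamini-Hochberg adjustment, a replicate block, the load as covariate, equal totals, presence or absence, split reads without length scaling, a minimum log2 of 8, a minimum of 3 samples, a pseudocount of 100, and leaving out each sample. Restricting the calls to chromosomes 2 to 9 was chosen after seeing the data. The tests were tested on simulated data. Tools were limma 3.58.1 in R 4.3.3, and SciPy 1.17.1, pandas 2.3.3, NumPy 2.4.6 and matplotlib 3.10.9 in Python 3.11.15.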

Additional observations from a re-analysis of the deposited data

Results flagged for a closer look

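In 15 sets of values of a group, 6 values stood apart from the rest by Dixon's criterion. Its rate of about 1 of 20 sets by chance is for independent, normally distributed values. The split reads were skewed and the sets overlap, so that this rate need not hold here. On the number of split reads on members, ALS library 6 stood apart with 13613 and control library 8 with 9346. The same libraries stood apart in the percent of split reads that fell on members, with 4.91% and 12.5%. These 4 values are those of *Slc24a2* and *Slc2a13* and are not separate findings. The log2 level of *Slc4a4* in ALS library 1, 12.52, stood above the other 4 positive ALS libraries, and that of *Slc8a1* in ALS library 3, 5.63, below the other 3. Levels of 0 were left out of these comparisons.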

How the results depend on the processing

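Of the 4 genes up in ALS, limma's test gave 4, beside 166 of all genes (1.99%). A minimum of 3 samples also gave 4, of 26 members tested, beside 111 of 1276 genes (8.7%). As this minimum leaves the p unchanged and all 4 genes meet it, it could not end their calls. *Slc35f4* and *Slc7a11* were the 2 that also passed with the exact p, equal totals, no length scaling, presence or absence, and the replicate block. Over all genes these settings gave 68 (0.816%), 60 (0.72%), 71 of 8106 (0.876%), 57 (0.684%) and 90 (1.08%). Outside the members, the exact p was computed only for genes with a difference above 1 and a Student p under 0.05. The 68 is therefore a lowest count. The load as covariate left 1 (*Slc7a11*), a pseudocount of 100 left 1 (*Slc35f4*), and adjusted Student p left 0. Adjusted limma p left 1, and chromosomes 2 to 9 hold 2. Over all genes the counts were 34 (0.408%), 9 (0.108%), 6 (0.072%), 11 (0.132%) and, on chromosomes 2 to 9, 64 of 4165 (1.54%). Without 1 sample, 2 to 4 members were up, with 2 without ALS library 3 or 8, beside 85 to 133 of all genes. Single members at an unadjusted p under 0.05 numbered 5 by the exact test, 11 by limma, 3 with the covariate, and 4 to 6 without 1 sample. The 11 of 140 by limma stood beside 611 of 8336 genes, and for the other settings no count over all genes is given. The number of members per library differed by 17.8 and by 15.1 to 19.7 without 1 sample, and the share by 0.13 percentage points, by -0.04 to 0.39 without 1 sample, and by -0.59 as a share of split reads, where ALS library 6 and control library 8 weigh most.

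The same replicate numbers in both groups did not pair the samples, since deviations of the 9 pairs correlated between -0.0205 and 0.0226 and 2 matched best with their own number. With the replicate block the differences were 4.40 for *Slc7a11*, 7.59 for *Slc35f4*, 3.60 for *Slc35f1* and 4.11 for *Slc4a4*, and 17.6 for the members per library. All genes shifted by 1.19 in the median as deposited, 1.05 with equal totals, 0.36 without length scaling and 0.39 with a pseudocount of 100.

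Directions turned with the covariate in *Slc10a7* (-3.56), *Slc17a6* (-3.81), *Slc23a2* (-1.83), *Slc24a3* (-2.03), *Slc25a12* (-0.24), *Slc25a21* (-2.81), *Slc35f1* (-0.78), *Slc39a11* (-4.31), *Slc4a10* (-0.062), *Slc4a4* (-0.47), *Slc6a5* (-2.79) and *Slco4a1* (-3.58). By presence they turned in *Slc2a13* (0.0111), *Slc35f3* (0.0222), *Slc8a3* (0.0111) and *Slco5a1* (0.0222). Without 1 sample the differences ranged from -0.75 to 1.07 for *Slc17a6*, from -1.70 to 0.76 for *Slc2a13*, from -0.69 to 0.86 for *Slc35f3*, from -0.81 to 1.06 for *Slc39a11*, from -1.08 to 0.91 for *Slc8a3* and from -1.86 to 0.43 for *Slco5a1*. The cause of the turns with the covariate and without 1 sample was not tested. Values resting on 2 split reads are at the limit of detection.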
